A study of Mus musculus with 2 samples.

Results

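The 9 genes described here belong to the wall and to the arteriovenous axis of blood vessels: Eln, Fbln5, Mgp, Bmx, Gkn3, Mfsd2a, Slc38a5, Vwf and Aldh2. They were taken by symbol from the 32285 genes of the deposited count tables, and all 9 were found. The genes were chosen from their measured levels in these same libraries, so their values are given as a description, with no test.

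The libraries were made from the cortex of mice at postnatal day 5, with 10x Genomics droplets. There were 2, a WT library and a Mut library; the labels name Katnal2, a gene of the katanin family of microtubule-severing ATPases, as the mutated gene, and give neither the allele nor the strain. Katnal2 itself had 327 UMIs (unique molecular identifiers, counted RNA molecules) in 312 barcodes of the WT library and 426 UMIs in 373 barcodes of the Mut library; since the allele is not described, this does not check the labels. Both tissues were dissociated with trypsin and then type-II collagenase, strained and sorted by flow cytometry with a gate that is not given, and the labels of both also mention frozen storage. Both libraries held barcodes of both sexes, so each pooled animals; 47.3% of the barcodes with a sex call were female in the WT library and 65.6% in the Mut library. The series' design text speaks of 3 replicates for each sample, but the barcodes carry no mark of them, so each library was counted as 1 sample. With 1 library per genotype, the genotype cannot be told apart from the animals, the dissection or the library, and every interval below covers counting error only, at 95%.

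Elastic arteries owe their recoil to elastin, which is laid down on microfibrils, guided by fibulin-5 and cross-linked by lysyl oxidases. In the brain, arteries, capillaries and veins are lined by endothelial cells with different gene sets: arterial cells follow Notch signalling, capillary cells carry most of the transporters of the blood-brain barrier, and venous cells carry Nr2f2, a nuclear receptor that keeps the venous state. Smooth muscle cells wrap arteries, pericytes wrap capillaries, and fibroblasts lie in the meninges and around larger vessels.

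Of the 9 genes, 5 had an upstream sequence in the RefSeq promoter table (GRCm38.p6). The 250 bases before the start are printed for Bmx and Gkn3, whose UMIs in endothelial barcodes lay nearly all on the arterial side, and for Mfsd2a, which was found in endothelial and in oligodendrocyte lineage barcodes. Each is written 5′ to 3′ on the gene's own strand, which is the minus strand for these 3 genes. Capitals mark a match to any of 5 motifs, each searched on both strands. The Ets motif was searched as AGGAAG and was found in 29.5% of all 32851 windows of this length in the table. The Sox motif was searched as AACAAT and was found in 9.42% of these windows. The Rbpj motif of Notch signalling was searched as TGGGAA and was found in 21.6% of them. The TATA box was searched as TATAAA and was found in 12.4% of them. The Gata motif was searched as AGATAA and was found in 9.99% of them.
Bmx, chrX:164258194-164258443: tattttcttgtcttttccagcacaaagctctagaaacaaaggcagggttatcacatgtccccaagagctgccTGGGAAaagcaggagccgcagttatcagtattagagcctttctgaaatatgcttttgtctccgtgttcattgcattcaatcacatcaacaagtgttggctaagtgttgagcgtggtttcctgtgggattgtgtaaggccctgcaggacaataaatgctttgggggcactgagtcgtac
Gkn3, chr6:87388936-87389185: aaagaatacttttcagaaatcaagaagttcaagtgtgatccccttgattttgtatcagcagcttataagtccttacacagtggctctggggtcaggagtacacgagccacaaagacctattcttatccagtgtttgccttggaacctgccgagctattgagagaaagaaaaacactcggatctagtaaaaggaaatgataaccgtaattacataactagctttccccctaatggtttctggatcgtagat
Mfsd2a, chr4:122961189-122961438: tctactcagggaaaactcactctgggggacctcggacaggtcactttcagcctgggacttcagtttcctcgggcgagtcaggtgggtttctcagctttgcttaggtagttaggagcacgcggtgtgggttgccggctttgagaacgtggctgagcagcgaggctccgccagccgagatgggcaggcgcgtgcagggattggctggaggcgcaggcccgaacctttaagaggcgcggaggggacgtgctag
The Bmx window held 1 Rbpj match, which overlapped no other, and the other 2 windows held 0 matches to these letters. Windows not printed also held matches. The Slc38a5 window, which overlaps an exon, held 1 Rbpj match. A Fbln5 window held 1 Ets and 1 Rbpj match, and another Fbln5 window held 0. The matches are a description of the sequence only.

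All coordinates are of GRCm38. Eln lies at chr5:134702593-134747323, Fbln5 at chr12:101746565-101819055, Mgp at chr6:136872435-136875823, Bmx at chrX:164192842-164258193, Gkn3 at chr6:87383256-87388935, Mfsd2a at chr4:122946850-122961188 and Aldh2 at chr5:121566027-121593824, all on the minus strand. Slc38a5 lies at chrX:8271133-8280179 and Vwf at chr6:125546774-125686679, both on the plus strand. All 9 are annotated as protein coding. Eln overlaps Gm30003 and Aldh2 overlaps Gm42879 on the other strand; whether the counting used strand is not given in the sources used here.

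Barcodes under 1000 UMIs or 500 detected genes, or with over 20% of their UMIs from mitochondrial genes, were dropped, which left 11024 in the WT library (median 6446 UMIs) and 10102 in the Mut library (median 7625.5). Classes were set by how many marker genes had a UMI, and none of the 9 genes was a marker. Endothelial barcodes held at least 7 of 12 markers (such as Cldn5, Pecam1 and Cdh5), mural barcodes at least 6 of 9 pericyte or 5 of 8 smooth muscle markers (such as Kcnj8 or Acta2), and fibroblast barcodes at least 6 of 10 (such as Col1a1 and Dcn). There were 267 endothelial barcodes in the WT library and 335 in the Mut library, 240 and 262 mural barcodes, and 55 and 138 fibroblast barcodes. A vascular barcode that also passed another class was set apart, 180 in each library. The median endothelial barcode held 10 of its 12 markers and 0 pericyte and fibroblast markers in both libraries; 13 barcodes in each library stood at the minimum of 7 and 15 in each stood 1 marker below it.

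Within the endothelium, barcodes with at least 3 of 10 arterial markers (such as Gja5 and Sema3g) and more arterial than venous ones were called the arterial side, 76 in the WT library and 89 in the Mut library. The reverse gave the venous side, 113 and 170, and 78 and 76 fell on neither side. Mural barcodes with at least 4 smooth muscle markers were called the smooth muscle side (24 and 19); they also held a median of 8 of 9 pericyte markers, so the 2 mural sides are ranges of a score, not separate types. Scrublet, which scores barcodes that resemble a sum of 2 others, marked 25.5% of WT and 14% of Mut endothelial barcodes, 2.5% and 1.91% of mural barcodes and 20% and 11.6% of fibroblast barcodes. Marked barcodes were kept in the values below unless stated. Libraries shared 39 kept barcode sequences, none of them in a vascular class of both.

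**Figure D1:**
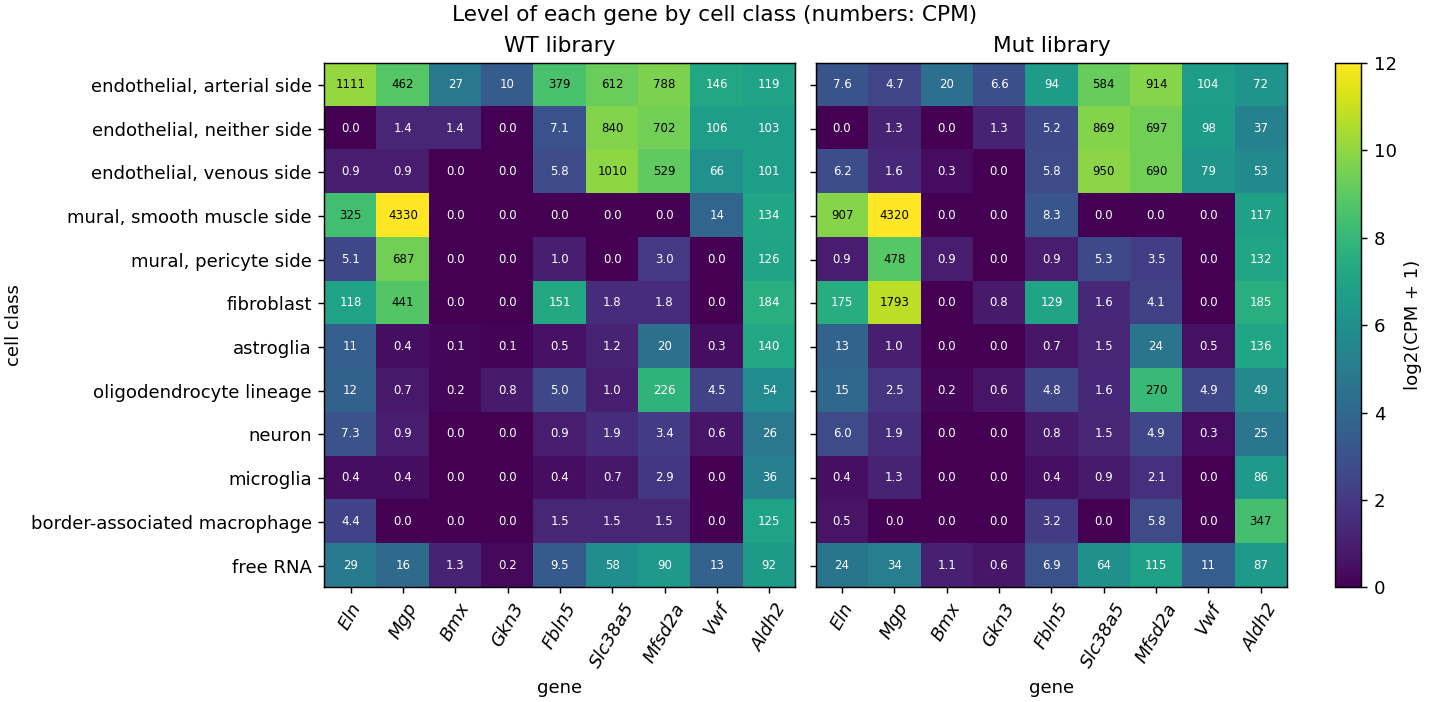
Level of each gene by cell class in the WT (left) and Mut (right) library; colour is log2(CPM + 1) and the printed number is the CPM, the gene's UMIs over all UMIs of the class, scaled to 1000000. Free RNA is the sum over barcodes of 10 to 100 UMIs. Eln, Mgp and Fbln5 on the arterial endothelial side differ between the panels, while Slc38a5 and Mfsd2a look alike in both.

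Levels are given as CPM, the UMIs of a gene over all UMIs of the barcodes of a class in a library, scaled to 1000000. A gene with at least 20 UMIs over both libraries was compared, and a ratio beyond 1.5-fold was counted as higher or lower. In endothelial barcodes 8 of the 9 genes were compared (Gkn3 had too few UMIs): 5 were lower in the Mut library (Eln, Mgp, Bmx, Fbln5 and Aldh2), 0 were higher and 3 were within 1.5-fold. Of 10941 genes compared in endothelial barcodes, 10.1% passed 1.5-fold, 7.08% higher and 3.02% lower. In mural barcodes 3 genes were compared and 1 was higher (Eln), beside 13.6% of 8848 genes, 9.18% higher and 4.46% lower. In fibroblast barcodes 4 were compared and 1 was higher (Mgp), beside 22.9% of 8428 genes, 15.2% higher and 7.8% lower. The genes were chosen with these ratios known, so nothing is read from the counts.

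Eln, the gene for elastin, was held by a handful of endothelial barcodes. In the WT library 8 of 267 endothelial barcodes had an Eln UMI, and 4 of them held 692, 236, 140 and 114 UMIs, together 1182 of the class's 1186. In the Mut library 11 of 335 endothelial barcodes had Eln, 27 UMIs in all, and the highest held 15. The share of endothelial barcodes with Eln was 3% (1.3 to 5.82) in the WT library and 3.28% (1.65 to 5.8) in the Mut library, so the libraries differed in a few barcodes of very high content and not in how many barcodes had the gene. The level was 297 CPM in the WT library and 5.5 CPM in the Mut library, a Mut to WT ratio of 0.0185 (0.0122 to 0.0271). Without the 4 barcodes the ratio was 5.44 (1.89 to 21.4), on 31 UMIs in all, with 15 of the 27 Mut UMIs in 1 venous-side barcode.

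The 4 WT barcodes with at least 30 Eln UMIs had the other arterial genes as well. Their Mgp UMIs were 208, 151, 77 and 55, their Fbln5 UMIs 207, 69, 42 and 32, and their Bmx UMIs 9, 2, 3 and 5, in the order of the Eln values above. Gkn3 had 6, 3, 0 and 0 UMIs and Vwf 27, 8, 7 and 5. Slc38a5 and Mfsd2a had 0 UMIs in all 4. Elastin made up 2.25% to 2.97% of all their UMIs, and Lox, a cross-linking enzyme of elastin, had 10, 4, 1 and 1. All 4 had Xist and no Y-linked UMI, so they came from female animals, and how many animals was not tested. The smooth muscle genes Acta2 and Myh11 and the collagen gene Col1a1 were at 0 UMIs in all 4. They held 8 to 10 of the 12 endothelial markers and 2 or 3 of the 10 fibroblast markers, and Scrublet marked 1 of the 4.

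Set against the other 72 arterial-side WT barcodes, the 4 barcodes also differed in genes named here after their values were seen. Col3a1, a fibrillar collagen chain, had 46 UMIs in the 4 and 0 in the 72, 356-fold higher if the 72 are taken at 3 UMIs. Fbln2, a fibulin of the vessel wall, was at 2952.6 CPM against 94.9 CPM, and Stmn2, a tubulin-binding protein known from neurons and large arteries, at 2657.3 CPM against 60.7 CPM. Fstl1, a secreted glycoprotein, was at 1794.3 CPM against 19.6 CPM. No Mut endothelial barcode reached 30 Eln UMIs. With 0 such barcodes among 335, a share of up to 0.896% is still allowed, taking 0 as up to 3 barcodes. The 4 of 267 in the WT library are 1.5%, with an exact interval of 0.41 to 3.79, which is another kind of bound.

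Mural and fibroblast barcodes held Eln in different ways. On the smooth muscle side 1 of 24 WT barcodes had 46 of the mural class's 51 UMIs, and 1 Mut barcode had 108 of 110. Both were rich in Acta2, the smooth muscle actin, with 100 and 143 UMIs. The mural ratio of 1.95 (1.39 to 2.77) was thus a comparison of 1 barcode with 1 barcode, and without them it was 0.361 (0.0344 to 2.21) on 7 UMIs. Fibroblast barcodes held low counts in many cells: 27 of 55 WT barcodes (49.1%) and 87 of 138 Mut barcodes (63%), at most 9 and 12 UMIs. The level was 118 CPM and 175 CPM, a ratio of 1.48 (1.11 to 1.99). When each barcode was thinned to 1000 UMIs, 7.27% (2.02 to 17.6) and 12.3% (7.34 to 19) still had Eln, intervals that overlap.

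Outside the vessels Eln was low but not even. Astroglia had 11 CPM in the WT library and 13 CPM in the Mut library, with 8.33% and 11.3% of barcodes carrying it at a median depth of 8261 and 9471 UMIs. Microglia had 1 UMI in each library, in 451 and 340 barcodes, at a median depth of 5786 and 6575 UMIs. After thinning the shares were 0.993% and 1.53% in astroglia and 0 in microglia, where 0 barcodes allow up to 0.665% and 0.882%. In free RNA Eln stood at 29.3 and 24.5 CPM. The order of the WT levels was endothelial, fibroblast, mural and then oligodendrocyte lineage (12.2 CPM) and astroglia, whose intervals overlap. In the Mut library it was fibroblast, mural, oligodendrocyte lineage (14.9 CPM), astroglia, neuron (6.02 CPM) and endothelial; the intervals of the oligodendrocyte lineage and astroglia overlap, and so do those of neurons and endothelial barcodes.

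Fbln5, which tethers elastin to microfibrils and cells, had a broader base. In endothelial barcodes it had 422 UMIs in 38 WT barcodes and 121 UMIs in 38 Mut barcodes, 106 CPM and 24.6 CPM, a ratio of 0.234 (0.189 to 0.287). The same 4 WT barcodes held 350 of the 422 UMIs; without them the ratio was 1.35 (1 to 1.84). The highest Mut barcodes held 19, 18 and 11 UMIs. The share of barcodes with Fbln5 was 14.2% (10.3 to 19) and 11.3% (8.15 to 15.2), intervals that overlap. On the arterial side 23 of 76 WT and 21 of 89 Mut barcodes had it, against 10 of 113 and 14 of 170 on the venous side.

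Fbln5 was also a gene of fibroblasts and of a stage of the oligodendrocyte lineage. Fibroblast barcodes had 82 UMIs (151 CPM, 37 of 55 barcodes) in the WT library and 156 UMIs (129 CPM, 67 of 138) in the Mut library, a ratio of 0.85 (0.647 to 1.12). Oligodendrocyte lineage barcodes with Gpr17, a receptor of committed precursors, and no Pdgfra had 31 WT UMIs in 20 of 144 barcodes and 19 Mut UMIs in 16 of 120, 25.9 CPM and 17.7 CPM. Those with Pdgfra, the receptor of earlier precursors, and no Gpr17 had 1.01 CPM and 3.22 CPM, with 2 and 5 UMIs. Mural barcodes had 1 UMI and 2 UMIs. The smooth muscle side, which held Mgp, had 0 Fbln5 UMIs in 24 WT barcodes and 1 in 19 Mut barcodes. With so few barcodes the exact intervals there reach up to 26.1 CPM and 46.4 CPM. Over whole classes the order was fibroblast, endothelial and then the oligodendrocyte lineage in both libraries. The interval of the fibroblast level (120 to 188 CPM in WT, 109 to 150 CPM in Mut) lay above that of the endothelial level (95.7 to 116 and 20.5 to 29.4 CPM). The arterial endothelial side alone was at 379 CPM (343 to 418) in WT, above fibroblasts. In Mut it was at 93.9 CPM (76.3 to 114), an interval that overlaps that of fibroblasts. The 4 WT barcodes rich in Eln held 350 of the 404 WT arterial UMIs.

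**Figure D2:**
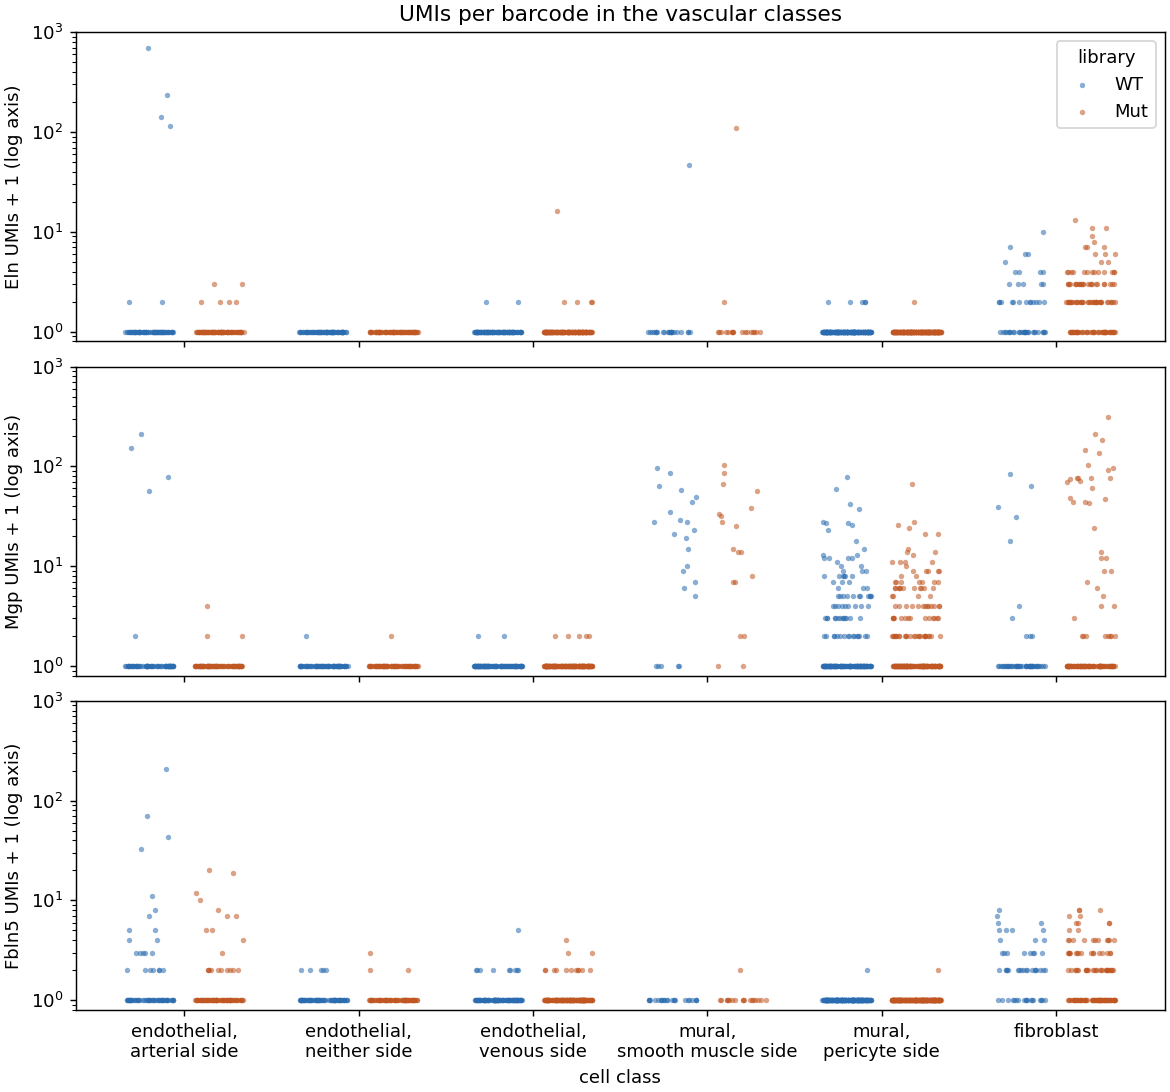
UMIs + 1 of Eln, Mgp and Fbln5 in each vascular barcode (1 point a barcode, log axis) by class, WT in blue and Mut in orange. The 4 highest WT arterial-side points hold 114 to 692 Eln UMIs; the highest smooth muscle side points hold 46 and 108; Mgp above 10 UMIs is seen in mural and fibroblast barcodes of both libraries.

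Mgp, matrix Gla protein, binds BMP ligands and keeps vessel walls free of calcium deposits. In mural barcodes it had 1291 UMIs in 103 of 240 WT barcodes and 1059 UMIs in 113 of 262 Mut barcodes. The shares of barcodes were 42.9% and 43.1%, and 30.4% and 28.6% after thinning, so the libraries were alike in how many mural barcodes had Mgp to within their intervals (24.7 to 36.7 and 23.2 to 34.5 after thinning). The level was 1143.5 CPM and 847 CPM, a ratio of 0.741 (0.682 to 0.804), within 1.5-fold. On the smooth muscle side it was 4330.3 CPM and 4320.5 CPM, in 19 of 24 and 17 of 19 barcodes. On the pericyte side it was 687 CPM and 478 CPM, in 84 of 216 and 96 of 243 barcodes. Female mural barcodes were at 1457.3 CPM and 706 CPM and male ones at 1195.2 CPM and 1755.7 CPM, so the ratio was 0.485 in females and 1.47 in males; the sexes were mixed in different proportions in the 2 libraries.

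In fibroblast barcodes Mgp was held by a minority, at high counts. In the WT library 10 of 55 barcodes had Mgp, and 5 of them held 10 or more UMIs: 83, 63, 38, 30 and 17. In the Mut library 41 of 138 had Mgp, and 25 held 10 or more, from 11 through a median of 73 to 311. The ranges overlap, and the Mut barcodes reached higher. The level was 441 CPM and 1792.7 CPM, a ratio of 4.07 (3.56 to 4.67), and Mgp in fibroblast barcodes made up 9.05% of all Mgp UMIs in the WT library and 44.9% in the Mut library. Scrublet marked all 5 of the WT barcodes with 10 or more Mgp UMIs and 1 of the 25 Mut barcodes; without marked barcodes the levels were 13.5 CPM (5 UMIs) and 1974.8 CPM (2080 UMIs), a ratio of 146 (62.4 to 450). The fibroblast class itself was 0.499% of kept barcodes in the WT library and 1.37% in the Mut library, and how much meningeal tissue each dissection held was not measured. It had 44 female and 7 male barcodes in the WT library, and 62 and 55 in the Mut library. Mgp stood at 517 and 2108.3 CPM in the female ones and at 16.1 (1 UMI) and 1448.6 CPM in the male ones.

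Fibroblast barcodes with Mgp also differed from the rest in other genes, named after their values were seen and given over both libraries together. With 10 or more Mgp UMIs, Ecrg4, a secreted peptide precursor, was at 1863.6 CPM against 6.86 CPM with 0 Mgp, Igfbp6, which binds insulin-like growth factors, at 768 against 6.01 CPM, and Mfap5, a microfibril protein, at 490 against 13.7 CPM. In the other direction Slc6a13, a GABA transporter of meningeal fibroblasts, was at 0 against 1322.9 CPM, Pltp, a phospholipid carrier, at 9.61 against 1375.2 CPM and Wnt4, a Wnt ligand, at 2.4 against 972 CPM. None of the 5 WT and 25 Mut barcodes with 10 or more Mgp UMIs had a Slc6a13 UMI, while all 30 had the collagen gene Col1a1. Igfbp6 was found in 5 of the 5 and 24 of the 25. Col1a1 and Slc6a13 are both fibroblast markers of the class rule.

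In the WT library endothelial Mgp lay in the same 4 barcodes as Eln. Of 495 WT UMIs 491 lay in the 4 barcodes with at least 30 Eln UMIs, and the Mut library had 11 UMIs in 9 barcodes, 124 CPM and 2.24 CPM, a ratio of 0.0181 (0.00898 to 0.0327). In the Mut library 1 barcode had both genes, of 11 with Eln and 9 with Mgp. Without the 4 barcodes the ratio was 2.22 (0.657 to 9.54) on 15 UMIs. Border-associated macrophages had 0 UMIs in 97 and 241 barcodes, which allows up to 4.41 and 1.59 CPM. Barcodes set apart for passing 2 classes held 556 and 1430 Mgp UMIs, 577 of the latter in 1 Mut barcode, and are in none of these values. The smooth muscle side stood highest in both libraries; in the WT library the pericyte side (636 to 740 CPM) came next, and then the arterial endothelial side (462 CPM, 422 to 504) and fibroblasts (387 to 500 CPM), whose intervals overlap, and in the Mut library fibroblasts (1718.1 to 1869.7 CPM) came before the pericyte side (438 to 520 CPM), with the arterial endothelial side at 4.74 CPM.

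Among the other genes of the elastic fibre, Fbln2 also passed 1.5-fold in endothelial barcodes. Of 23 listed genes (fibrillins, fibulins, lysyl oxidases, latent TGF-β binding proteins and others), 9 were compared in endothelial barcodes, 0 were higher and 3 were lower: Eln, Fbln5 and Fbln2 (59.3 CPM and 21.6 CPM). Of the 237 WT UMIs of Fbln2, 130 lay in the 4 barcodes rich in Eln. Among the 14 listed genes under 20 UMIs, the cross-linking enzyme Lox had 16 WT UMIs and 1 Mut UMI, a ratio of 0.0509 (0.00121 to 0.328), and the 4 barcodes held all 16. The fibrillin gene Fbn1 had 12 WT UMIs and 4 Mut UMIs, a ratio of 0.272 (0.0638 to 0.896), and Ltbp3 had 11 and 4. In the other direction Ltbp1 had 4 WT and 11 Mut UMIs, a ratio of 2.24 (0.664 to 9.65), and Fbn2 had 0 and 2. The list's median log2 ratio was -0.03 over the 9 compared, beside 0.07 over all genes compared and 3.02% of them lower. In mural barcodes 9 were compared, 1 was higher (Eln) and 1 was lower (Ltbp3, 19.5 CPM and 11.2 CPM), with a median of 0.28 beside 0.08. Of all genes compared there, 9.18% were higher and 4.46% lower. In fibroblast barcodes 19 were compared, 0 were higher and 1 was lower (Fbln2, 31.4 CPM and 16.5 CPM), with a median of -0.16 beside 0.06. Of all genes compared in fibroblasts, 15.2% were higher and 7.8% lower. Fibroblasts held the microfibril genes Mfap4 (572 CPM and 459 CPM), Mfap2 (544 and 598 CPM) and Fbn2 (352 and 289 CPM) at similar levels in the 2 libraries.

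For the BMP pathway, which Mgp restrains, and the enzymes of Gla carboxylation, 24 genes were listed. In endothelial barcodes 17 were compared, 0 were higher and 1 was lower (Mgp); the receptor Eng was at 562 CPM and 624 CPM, and the target genes Id3 and Id1 were at 644 and 497 CPM and at 351 and 289 CPM. The list's median log2 ratio was 0.08, beside 0.07 over all genes compared, of which 7.08% were higher and 3.02% lower. In mural barcodes 16 were compared and 3 were higher: Id1 (65.5 CPM and 118 CPM), Id2 (9.74 and 18.4 CPM) and the signal carrier Smad5 (31 and 50.4 CPM), with 0 lower; 9.18% of all genes compared were higher, and the median was 0.08 for the list and for all genes. In fibroblast barcodes 22 were compared and 4 were higher: Mgp, the ligand Bmp2 (81.2 CPM and 156 CPM), Id2 (71.9 and 122 CPM) and the carboxylase Ggcx (7.38 and 16.5 CPM), with 0 lower, beside 15.2% of all genes higher and a median of 0.17 for the list and 0.06 for all genes. The list's share past 1.5-fold was thus near that of all genes in fibroblasts. Bmp2 was at 178 CPM in the fibroblast barcodes with 0 Mgp and at 0 in those with 10 or more.

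Bmx, a non-receptor tyrosine kinase of arterial endothelium, was rare. It had 30 UMIs in 13 of 267 WT endothelial barcodes and 22 UMIs in 13 of 335 Mut ones, 7.5 CPM and 4.48 CPM. The ratio was 0.597 (0.328 to 1.07), and 1.61 (0.749 to 3.68) without the 4 WT barcodes, which held 19 of the 30 UMIs. On the arterial side it had 29 UMIs in 12 of 76 WT barcodes and 21 UMIs in 12 of 89 Mut barcodes, and on the venous side 0 UMIs in 113 and 1 UMI in 170. The WT arterial level was 20.2-fold that of 3 UMIs on the venous side, and the exact interval of the ratio began at 15.4. The Mut ratio was 61.4 (9.87 to 2539.1). Bmx was therefore an arterial-side gene in both libraries, and 63.8% and 56.4% of all its UMIs lay in endothelial barcodes.

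Gkn3, a gastrokine known as an arterial endothelial marker of the brain, was rarer. In the WT library 4 endothelial barcodes had 6, 3, 1 and 1 UMIs, all on the arterial side and all with Bmx. In the Mut library 1 arterial-side barcode had 7 UMIs and 1 barcode on neither side had 1 UMI, both without Bmx. The venous side had 0 UMIs in 113 WT and 170 Mut barcodes. The exact intervals of the arterial to venous ratio began at 5.24 and 4.21. Oligodendrocyte lineage barcodes had 10 WT and 7 Mut UMIs, each the sole Gkn3 UMI of its barcode, 0.512% (0.246 to 0.94) and 0.395% (0.159 to 0.812) of barcodes. Astroglia, which are deeper, had 0.0845% and 0.0222%, and neurons had 0 in 1654 and 1137 barcodes, which allows up to 0.181% and 0.264%. Free RNA held 1 and 3 Gkn3 UMIs.

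The barcodes with Bmx or Gkn3 were poor in Slc38a5. In the WT library 8 of these 13 barcodes had 0 Slc38a5 UMIs, out of 22 such barcodes among all 267 endothelial ones. In the Mut library it was 9 of 15, out of 24 among 335. Mfsd2a was found in more of them, in 9 of the 13 WT barcodes with Bmx and in 11 of the 13 Mut ones, with up to 27 and 28 UMIs. The 2 Mut barcodes with Gkn3 and no Bmx had 0 Mfsd2a UMIs. Among all endothelial barcodes 254 of 267 WT and 322 of 335 Mut ones had Mfsd2a. The 4 WT barcodes with at least 30 Eln UMIs were among the 6 WT endothelial barcodes with 0 UMIs of both transporters. Of the 6 such Mut barcodes, 4 had Bmx or Gkn3, and these held 2, 2, 0 and 0 Eln UMIs; the Gkn3 barcode with 7 UMIs held 9 Fbln5 UMIs, 2 Eln UMIs and 1 Mgp UMI. These 4 Mut barcodes had 1240 to 6208 UMIs in all, beside 5076 to 23289 UMIs in the 4 WT barcodes.

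**Figure D3:**
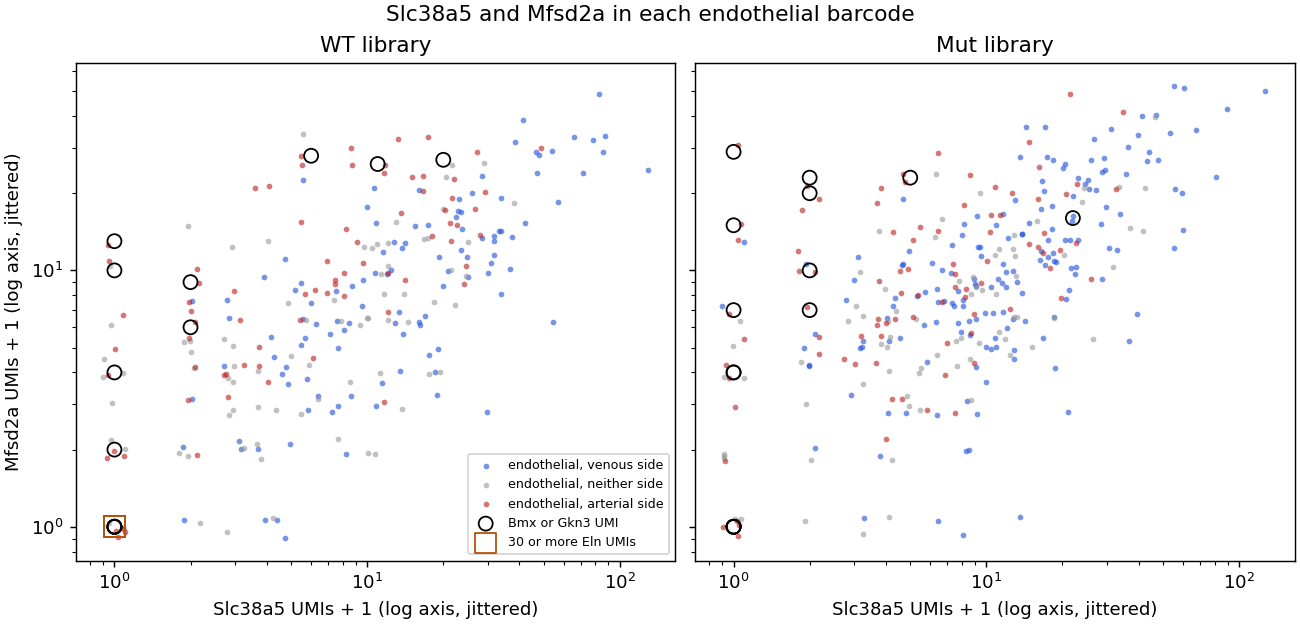
Slc38a5 against Mfsd2a UMIs + 1 (log axes, points jittered) in each endothelial barcode of the WT (left) and Mut (right) library, coloured by side. Circles mark barcodes with a Bmx or Gkn3 UMI and squares those with 30 or more Eln UMIs; the 4 WT squares lie on top of each other at 0 UMIs of both transporters.

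Of the 22 genes listed for arterial endothelium, Bmx and Gkn3 among them, 19 were compared in endothelial barcodes. The chemokine receptor Cxcr4 was higher (18 CPM and 32.8 CPM), and Bmx, Gja5 (6.5 CPM and 3.46 CPM), a gap junction protein of arteries, and Stmn2 (50.3 CPM and 28.3 CPM) were lower. The 4 WT barcodes rich in Eln held 117 of the 201 WT Stmn2 UMIs and, with 16, 8, 1 and 0, nearly all of the 26 WT Gja5 UMIs; Gja5 is itself an arterial marker of the class rule. The abundant members Nrp1 (231 CPM and 296 CPM), Notch1 (176 and 203 CPM) and Sox17 (160 and 177 CPM) were within 1.5-fold. Thus 1 of the 19 was higher and 3 were lower, beside 7.08% and 3.02% of all genes compared. The list's median log2 ratio was -0.10 beside 0.07 over all genes compared.

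**Figure D4:**
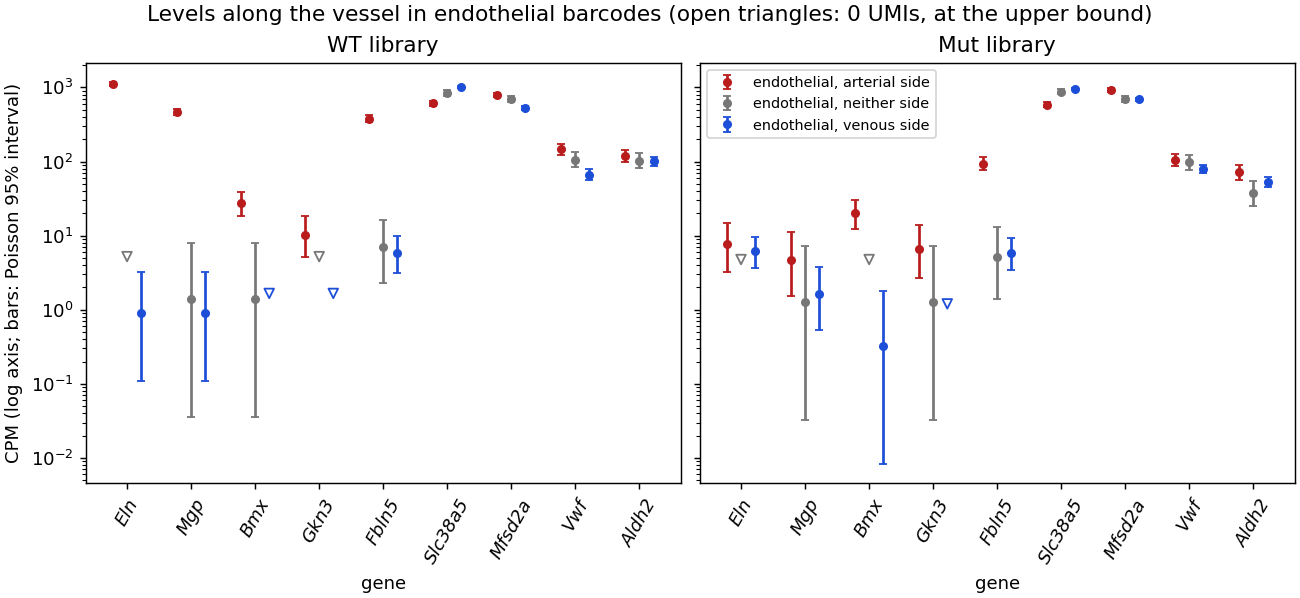
CPM of each gene (log axis) on the arterial, neither and venous side of the endothelial barcodes in the WT (left) and Mut (right) library; bars are exact Poisson 95% intervals and open triangles stand at the upper bound where there were 0 UMIs. Bmx, Gkn3 and Fbln5 stand highest on the arterial side and Slc38a5 on the venous side in both libraries; Eln has an arterial to venous ratio of 1236.0 in the WT library and 1.23 in the Mut library.

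Among all genes compared between the sides, 10.9% of 9146 were past 1.5-fold toward the arterial side and 16.4% toward the venous side in the WT library, and 10.4% and 11.2% of 9719 in the Mut library. Sides were set from other genes of the same barcodes, so the contrasts are descriptions. Fbln5 had an arterial to venous ratio of 64.9 (37.5 to 123) in the WT library and 16.1 (9.67 to 28.2) in the Mut library. Eln was at 1110.6 CPM on the arterial side and 0.899 CPM (2 UMIs) on the venous side of the WT library, a ratio of 1236.0 (341 to 10218.3), and at 7.59 CPM and 6.17 CPM in the Mut library, a ratio of 1.23 (0.466 to 2.94). In the 72 WT arterial-side barcodes that were left without the 4, Eln had 2 UMIs, Mgp 1, Fbln5 54 (52.8 CPM) and Bmx 10 (9.78 CPM), beside 8, 5, 99 (93.9 CPM) and 21 (19.9 CPM) in the 89 Mut ones.

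Slc38a5, which exchanges glutamine and other neutral amino acids, was found in nearly every endothelial barcode. It had 3493 UMIs in 245 of 267 WT barcodes and 4216 UMIs in 311 of 335 Mut barcodes, 91.8% and 92.8%, with a median of 9 UMIs where present in both. The level was 873 CPM and 859 CPM, a ratio of 0.983 (0.94 to 1.03). It was lower on the arterial side (612 CPM and 584 CPM) than on the venous side (1009.5 CPM and 950 CPM), with arterial to venous ratios of 0.606 (0.554 to 0.661) and 0.614 (0.562 to 0.67). All 113 WT venous-side barcodes and 168 of the 170 Mut ones had it, against 64 of 76 and 76 of 89 on the arterial side, where the median depth was lower (10737 and 10005 UMIs beside 13957 and 13524). After thinning the shares were 46.1% and 34.8% on the arterial and 66.4% and 57.1% on the venous side, the same order. Mural barcodes had 0 UMIs in the WT library, which allows up to 2.66 CPM, and 6 in the Mut library, while free RNA held 57.8 and 64.1 CPM.

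Mfsd2a is the lysophosphatidylcholine carrier that brings docosahexaenoic acid into the brain and keeps endothelial transcytosis low. Unlike Slc38a5, it was higher on the arterial than on the venous side. It had 2514 UMIs in 254 WT and 3630 UMIs in 322 Mut endothelial barcodes, 629 CPM and 739 CPM, a ratio of 1.18 (1.12 to 1.24). The arterial side was at 788 CPM and 914 CPM and the venous side at 529 CPM and 690 CPM, with arterial to venous ratios of 1.49 (1.36 to 1.63) and 1.32 (1.23 to 1.43). Barcodes on neither side were at 702 CPM (642 to 767) and 697 CPM (640 to 759). In the Mut library that interval overlaps the one of the venous side (661 to 720), and in the WT library the one of the arterial side (736 to 843). The 4 WT barcodes rich in Eln, all on the arterial side, had 0 Mfsd2a UMIs. The Mut to WT ratio was 1.16 (1.06 to 1.27) on the arterial side, 1.31 (1.22 to 1.4) on the venous side and 0.993 (0.877 to 1.12) on neither side, all within 1.5-fold.

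Mfsd2a was also held by the oligodendrocyte lineage. There it had 2746 UMIs in 1277 of 1952 WT barcodes and 3131 UMIs in 1282 of 1773 Mut barcodes, 226 CPM and 270 CPM, a ratio of 1.2 (1.14 to 1.26), and this class held 32.4% and 30.6% of all Mfsd2a UMIs beside 29.6% and 35.5% in the endothelial class. Barcodes with Pdgfra and no Gpr17 had 166 CPM and 175 CPM, and those with Gpr17 and no Pdgfra had 240 CPM and 214 CPM, with ratios of 1.06 (0.896 to 1.24) and 0.893 (0.747 to 1.07). Astroglia were at 20.3 CPM and 23.5 CPM, above neurons (3.35 and 4.88 CPM) and microglia (2.88 and 2.13 CPM), with free RNA at 90.3 and 115 CPM. The order endothelial, oligodendrocyte lineage, astroglia was the same in both libraries, with no overlap of intervals. Of 19 listed genes of barrier transport, among them Mfsd2a and Slc38a5, 19 were compared in endothelial barcodes. None was higher or lower, beside 7.08% and 3.02% of all genes compared. The most abundant of the list were Spock2 (1353.5 and 1564.1 CPM), the thyroid hormone carrier Slco1c1 (1293.5 and 1282.6 CPM) and Slc3a2 (1286.5 and 1299.3 CPM). Spock2 is a marker of capillary endothelium and not itself a carrier.

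Vwf, von Willebrand factor, is the glycoprotein stored in Weibel-Palade bodies that tethers platelets. It had 379 UMIs in 138 of 267 WT barcodes and 429 UMIs in 171 of 335 Mut barcodes, 51.7% and 51%. The level was 94.8 CPM and 87.4 CPM, a ratio of 0.922 (0.801 to 1.06). Arterial-side barcodes were at 146 CPM and 104 CPM and venous-side ones at 66.5 CPM and 78.9 CPM, with arterial to venous ratios of 2.2 (1.75 to 2.77) and 1.32 (1.05 to 1.66). Barcodes on neither side were at 106 CPM (83.4 to 133) and 98.1 CPM (77.3 to 123). The 4 WT barcodes with at least 30 Eln UMIs held 47 of the 156 WT arterial UMIs; the other 72 were at 107 CPM (87.6 to 129), beside 104 CPM (85.8 to 126) in the Mut library. Oligodendrocyte lineage barcodes with Gpr17 and no Pdgfra held 19 UMIs in 16 of 144 WT and 20 UMIs in 17 of 120 Mut barcodes, 15.9 CPM and 18.6 CPM, beside 2.51 and 1.93 CPM with Pdgfra and no Gpr17. Astroglia were at 0.344 and 0.476 CPM and microglia had 0 UMIs, while free RNA was at 12.7 and 11 CPM.

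Vwf is often read as a venous gene, and the list of venous endothelium held it and Slc38a5 among 13 genes, of which 12 were compared in endothelial barcodes. Il1r1, the interleukin-1 receptor (11.8 CPM and 18.3 CPM), and the adhesion molecule Vcam1 (10 and 15.7 CPM) were higher and Ackr1, a chemokine-binding receptor of venules (5.75 and 2.85 CPM, 23 and 14 UMIs), was lower. Thus 2 of the 12 were higher and 1 was lower, beside 7.08% and 3.02% of all genes compared. The list's median log2 ratio was 0.14 beside 0.07. Of the genes listed for Weibel-Palade bodies and haemostasis, Plat, the tissue plasminogen activator, was at 126 CPM and 145 CPM and the growth factor Pdgfb at 241 CPM and 227 CPM, both within 1.5-fold.

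Aldh2, the mitochondrial dehydrogenase that clears acetaldehyde and lipid aldehydes, was found in every class and differed between the libraries in opposite directions. In endothelial barcodes it had 425 UMIs in 164 of 267 WT barcodes and 268 UMIs in 147 of 335 Mut barcodes, 61.4% (55.3 to 67.3) and 43.9% (38.5 to 49.4). The level was 106 CPM and 54.6 CPM, a ratio of 0.514 (0.439 to 0.6). After thinning 10.5% (7.08 to 14.8) and 5.37% (3.22 to 8.36) of barcodes had it, the same order, with intervals that overlap. The highest barcode held 11 UMIs in the WT library and 6 in the Mut library, and without the highest barcode of each library the ratio was 0.519. It was lower on the arterial side (119 and 72.1 CPM), the venous side (101 and 52.9 CPM) and neither side (103 and 37.4 CPM). Female barcodes were at 97.4 CPM and 49.8 CPM and male ones at 110 CPM and 62.2 CPM.

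In the brain's macrophages Aldh2 was higher in the Mut library. Border-associated macrophages, which lie in the meninges and around vessels (at least 4 of 6 markers such as Mrc1 and Pf4), had 85 UMIs in 54 of 97 WT barcodes and 655 UMIs in 204 of 241 Mut barcodes. The level was 125 CPM and 347 CPM, a ratio of 2.78 (2.21 to 3.52). Microglia had 101 UMIs in 77 of 451 WT and 202 UMIs in 135 of 340 Mut barcodes, 36.4 CPM and 86.1 CPM, a ratio of 2.36 (1.85 to 3.03). In border-associated macrophages 18.6% of 8320 genes compared were past 1.5-fold, 12.2% higher and 6.41% lower, and in microglia 12.7% of 9737, 8.6% higher and 4.11% lower. Thinned shares were 14.4% (8.12 to 23) and 27% (21.5 to 33) in border-associated macrophages and 3.55% (2.04 to 5.7) and 7.94% (5.3 to 11.3) in microglia. The intervals of the 2 libraries overlap in each class. The order held in female (129 and 367 CPM; 44.8 and 87.9 CPM) and male barcodes (118 and 329 CPM; 29.9 and 84.4 CPM). The border-associated macrophage class was 0.88% of kept barcodes in the WT library and 2.39% in the Mut library, and its barcodes also held a median of 5 of 7 microglial markers.

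In the remaining classes Aldh2 was alike in the libraries. Astroglia, which held 64.4% and 62.1% of its UMIs, were at 140 CPM and 136 CPM, a ratio of 0.977 (0.942 to 1.01). Fibroblasts were at 184 CPM and 185 CPM, a ratio of 1 (0.787 to 1.28), and mural barcodes at 127 CPM and 130 CPM, a ratio of 1.03 (0.817 to 1.3). The oligodendrocyte lineage was at 54.1 CPM and 49.2 CPM and neurons at 26.3 CPM and 25.4 CPM, while free RNA was at 92 CPM and 86.9 CPM. Between the 2 libraries endothelial barcodes moved from above the oligodendrocyte lineage to its level (48.2 to 61.5 CPM beside 45.3 to 53.4 CPM). Border-associated macrophages stood at 125 CPM (99.9 to 155) in the WT library, near mural barcodes (107 to 149 CPM). Their WT value was below that of fibroblasts, but the intervals overlap (150 to 224 CPM in fibroblasts). In the Mut library they stood above fibroblasts (321 to 375 CPM beside 161 to 210 CPM).

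Other aldehyde dehydrogenases did not share one direction. Of 18 listed, 11 were compared in endothelial barcodes: Aldh1l1 (1.25 CPM and 4.07 CPM, 5 and 20 UMIs), a folate enzyme of astrocytes, and Aldh5a1 (5.5 and 8.55 CPM), which clears succinic semialdehyde, were higher, and Aldh2 and the proline synthesis enzyme Aldh18a1 (7.25 and 4.48 CPM) were lower. Of all genes compared in endothelial barcodes, 7.08% were higher and 3.02% lower. In border-associated macrophages 7 were compared and Aldh2 alone was higher, with 0 lower, beside 12.2% and 6.41% of all genes. Aldh9a1 was at 82.4 CPM and 98.1 CPM there. In microglia 10 were compared and 3 were higher: Aldh2, Aldh7a1 (11.2 CPM and 20 CPM) and Aldh1l2 (1.8 CPM and 6.39 CPM), with 0 lower. Of all genes compared in microglia, 8.6% were higher and 4.11% lower. In fibroblasts the retinoic acid enzymes Aldh1a2 (321 CPM and 413 CPM) and Aldh1a1 (173 and 218 CPM) were within 1.5-fold.

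**Figure D5:**
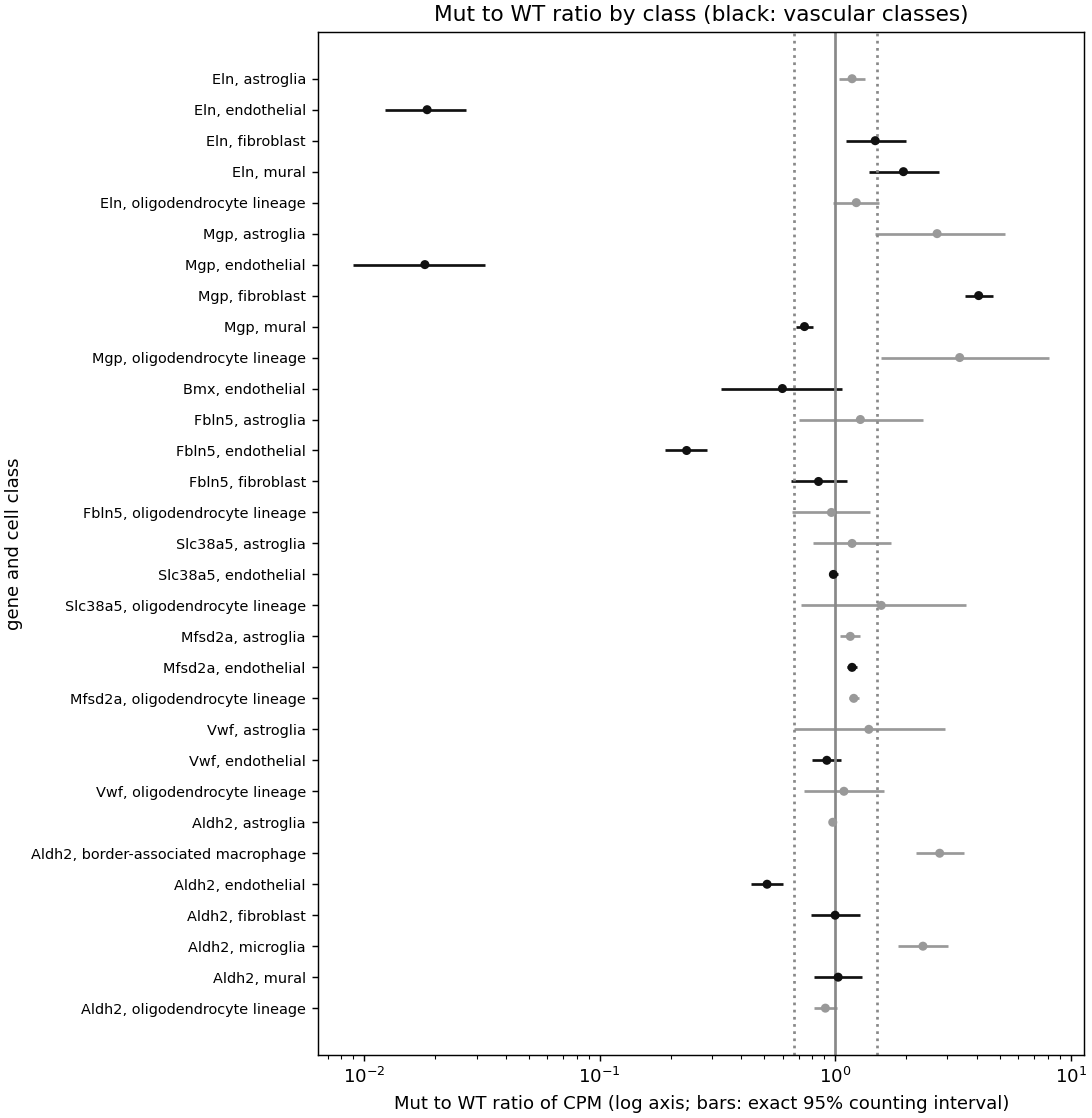
Mut to WT ratio of CPM (log axis) for each gene and class with at least 20 UMIs over both libraries; bars are exact 95% counting intervals, dotted lines stand at 1.5-fold and vascular classes are black. Eln and Mgp in endothelial barcodes lie near 0.02, Mgp in fibroblasts at 4.07, and Aldh2 lies below 1 in endothelial barcodes and above 2 in both macrophage classes.

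Astroglia and the oligodendrocyte lineage, where 7 of the genes were compared in each, showed few ratios past 1.5-fold, and all of them on low counts. In astroglia Mgp was higher (15 and 44 UMIs, 0.369 and 0.998 CPM), beside 6.61% of 15175 genes past 1.5-fold, 3.89% higher and 2.71% lower. In the oligodendrocyte lineage Mgp (9 and 29 UMIs) and Slc38a5 (12 and 18 UMIs) were higher, beside 5.64% of 13583 genes, 3.54% higher and 2.1% lower. Free RNA held Mgp at 16.5 CPM in the WT library and 34 CPM in the Mut library, also higher in the Mut library, and its part in these values was not tested.

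The genes with the most similar pattern to each of the 9 were ranked by Pearson's r of log2(CPM + 5) over 22 points, 11 classes in each of 2 libraries, among 15155 genes. The points share libraries, depth and class rules, and the r is a description. For Eln the closest were Synpo (r = 0.805) and Lox (r = 0.799), and for Mgp they were Synpo (r = 0.943) and A4galt (r = 0.941). For Bmx and Gkn3 the closest was Syt15 (r = 0.975 and r = 0.956), and Sema3g, itself an arterial marker here, was also among the 5 closest to both. Fbln5 was closest to Ace (r = 0.904), Slc38a5 to AU021092 (r = 0.998) and Tmem252 (r = 0.997), Mfsd2a to Ccdc85a (r = 0.965), Vwf to Robo4 (r = 0.984) and Aldh2 to Agtrap (r = 0.843). Bmx and Gkn3 rest on 86 and 48 UMIs over both libraries.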

How the data were processed

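Single-cell libraries of P5 mouse cortex, 1 WT and 1 Mut, were analysed from the deposited UMI count matrices, which the authors made with Cell Ranger and STAR on GRCm38, per the submitters' processing notes; the matrix header names Cell Ranger software version 4. The annotation release and the sort gate are not given in the sources used here. Raw counts were summed per class and library and divided by all UMIs of the class (CPM). The 3 replicates that the design text mentions could not be told apart in the barcodes, so each genotype is 1 sample and no test was run; intervals are exact Poisson (CPM), Clopper-Pearson (shares) and conditional binomial (ratios). UMI totals of kept barcodes were 84574847 (WT) and 88375648 (Mut), which limits precision for genes of under 20 UMIs. A count of 0 allows up to 3 counts. Classes required the marker minima stated in the results, with at least 6 of 8 markers for astroglia and 4 for the oligodendrocyte lineage, neurons and microglia. Doublets were set apart by markers and, as an alternative, by Scrublet (scanpy 1.11.5) at 0.8% per 1000 barcodes. Thinning drew 1000 UMIs per barcode. Promoter sequences are from RefSeq, genes' positions from GENCODE annotation (32158 of 32285 identifiers matched).

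The 9 genes, the lists and the marker panels were chosen with earlier results of these data known. Named genes were the 9, for each list and vascular class the 3 of highest CPM and up to 3 of largest ratio, and for each of the 9 the 5 genes of highest r, of which some are printed. The ratio and interval code was tested on simulated data. A result of the list for haemostasis is not reported here.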

Additional observations from a re-analysis of the deposited data

Results flagged for a closer look

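For 3 results the female barcodes (Xist and no Y-linked UMI) and the male barcodes (a Y-linked UMI and no Xist) moved in opposite directions between the libraries; with 1 library per genotype these differences were not tested. The Mut to WT ratio of Bmx in endothelial barcodes was 0.178 in females (23 and 9 UMIs) and 4.37 in males (3 and 8 UMIs). For Fbln5 in endothelial barcodes it was 0.049 in females and 2.83 in males. The 4 WT barcodes rich in Eln were all female and held 19 of the 23 female WT Bmx UMIs. For Mgp in mural barcodes it was 0.485 in females and 1.47 in males, over 669 and 432 female UMIs and 378 and 469 male UMIs.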

How the results depend on the processing

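No paired analysis was possible because each genotype has 1 library. The main results were Mut to WT ratios in vascular, microglia and border-associated macrophage barcodes, and shares of genes past 1.5-fold. Of their values under an alternative, 182 stayed within the reported value's counting interval (for a share of genes, within 1.5 times it). Another 39 moved further, and 7 turned direction. The other results were arterial to venous ratios, shares of endothelial barcodes with a gene, and Mut to WT ratios in astroglia and the oligodendrocyte lineage. There 197 values stayed, 30 moved further and 1 turned direction (astroglial Mfsd2a). A turn of direction was counted where the reported ratio's interval left out 1. Ratios whose interval holds 1 crossed it too: endothelial Bmx (0.597) was above 1 when thinned (1.06), in males and without the 4 barcodes, Vwf (0.922) when thinned and without the 4 barcodes (1.04), Slc38a5 (0.983) and fibroblast Fbln5 (0.85) in females (the latter 1.11), and mural Aldh2 (1.03) in 4 settings, from 0.868 to 0.977. The last 2 alternatives below were chosen after seeing the data, and a ratio that rested on under 5 UMIs was not computed. All ratios are Mut to WT.

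With Scrublet barcodes removed, endothelial Eln was 0.00757 and Slc38a5 0.939, and fibroblast Mgp was 146. Without the highest barcode of each library, endothelial Fbln5 was 0.387, fibroblast Mgp 4.87 and mural Eln 0.361, a turn of direction. With barcodes thinned to 1000 UMIs, endothelial Eln was 0.0473, Fbln5 0.342, Slc38a5 0.877, Vwf 1.36 and Aldh2 0.41, mural Mgp 0.637, fibroblast Eln 2.09 and border-associated macrophage Aldh2 2.14, and 21% of genes in endothelial and 21% in mural barcodes were past 1.5-fold. With median-of-ratios scaling, endothelial Slc38a5 was 0.934 and Mfsd2a 1.12. In female barcodes endothelial Eln was 0.0027, Mgp 0.00278, Bmx 0.178, Fbln5 0.049, Slc38a5 1.07 and Vwf 0.731, mural Mgp 0.485 and mural Eln 0 (48 WT UMIs against 0), a turn of direction. In male barcodes endothelial Bmx was 4.37, fibroblast Eln 2.37, Mgp 90 and Fbln5 0.378. The male fibroblast values rest on 7 WT and 55 Mut barcodes, and the 7 held 1 Mgp UMI. Endothelial Fbln5 (2.83), mural Mgp (1.47) and astroglial Mfsd2a (0.994) turned direction in males. With no minimum of UMIs per gene, 33.2% of genes in endothelial, 37.4% in mural and 45.5% in fibroblast barcodes were past 1.5-fold. Without the 4 WT barcodes rich in Eln, endothelial Bmx was 1.61, across 1 and past 1.5-fold the other way, and Eln (5.44), Mgp (2.22) and Fbln5 (1.35) turned direction, since those barcodes held most of the WT UMIs. With barcodes of several classes kept, endothelial Eln was 0.0327, Mgp 0.225 and Fbln5 0.308, mural Eln 1.16 and Mgp 0.86, and fibroblast Mgp 2.55 and Fbln5 0.607. For the other changes of direction and size the cause was not tested.

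The depth limits Bmx and Gkn3 most, with 86 and 48 UMIs in all, and the Eln and Mgp ratios in endothelial barcodes rest on 4 barcodes.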
